A study of Mus musculus with 6 samples.

Results

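The genes described here are the subunits of the transcription factor NF-kappaB and the inhibitors that restrain it, 10 genes chosen by symbol: Rel, Rela, Relb, Nfkb1, Nfkb2, Nfkbia, Nfkbie, Nfkbiz, Bcl3 and Tnfaip3. Of these, 9 were read by a probe set with a single gene symbol, out of 22180 genes measured that way, and Nfkb1 was not analysed here. Each of the 9 had 1 probe set, and all 9 lay at or above the median level of all genes. The choice used the names of the genes and not their values, but it was made with earlier results of these data known.

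Expression was measured in liver of 6 mice, each on 1 whole-transcript array: 3 ErbB4-/- mice and 3 wild-type controls, which the design text calls biological replicates. ErbB4 is a cell surface receptor for neuregulins, with kinase activity, and a relative of the epidermal growth factor receptor. The ErbB4-/- mice lack the receptor in the whole body except for a transgene that supplies it in the heart (ErbB4-/-HER4heart), which rescues them from death as embryos, and the line was backcrossed to C57BL/6J for more than 15 generations. The controls were C57BL/6J mice and are not labelled as carrying the transgene, so the missing receptor, the transgene and other differences of the line cannot be told apart. All 6 mice received DEN, in this field the liver carcinogen diethylnitrosamine, once on postnatal day 14. The protocol gives 32 weeks until dissection for every mouse, whereas the treatment characteristic gives 35, 36 and 37 weeks for ErbB4-/- replicates 1 to 3 and 32, 33 and 34 weeks for control replicates 1 to 3. These labelled weeks rise by 1 from sample to sample, separate the groups completely and conflict with the protocol, so values with the week as a covariate rest on a doubtful label.

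NF-kappaB proteins are dimers of the Rel family that wait in the cytoplasm, bound by inhibitors of the IkappaB type. Signals from tumour necrosis factor, interleukin 1 or Toll-like receptors activate IkappaB kinases, the inhibitors are degraded, and the dimers enter the nucleus. Among the genes they switch on are those of their own inhibitors and of some subunits, which closes a feedback loop. In liver the pathway is known from hepatocytes, which it protects from death, and from Kupffer cells and other leukocytes, which use it to make cytokines.

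Because several of these genes are known targets of NF-kappaB, the promoter stretches that hold its binding motif are shown. Of the 10 genes, 7 matched the RefSeq promoter table (assembly GRCm38.p6, 250 bases before to 50 bases after each gene start). The others were Relb, Nfkb1 and Nfkbiz. The kappaB consensus, searched on both strands with overlapping matches allowed, was present in at least 1 window of 6 of these 7 genes, against 9.55% of the 27025 genes of the table and 8.46% of its 32851 windows. It was also present for 11 of the 31 NF-kappaB target genes that the table holds, or 35.5%. A looser form, GGGNNNNNCC, was present for 7 of 7 genes and for 53.5% of all genes, so it is common everywhere. In the following stretches, written 5′ to 3′ on the strand of the gene and ending before the gene start, capitals mark the bases covered by a consensus match on either strand.
Rel, chr11:23771031-23771081, minus strand: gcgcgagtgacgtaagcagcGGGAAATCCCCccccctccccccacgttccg
Nfkb2, chr19:46304678-46304736, plus strand: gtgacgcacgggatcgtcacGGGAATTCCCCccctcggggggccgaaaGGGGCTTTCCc
Nfkbia, chr12:55492648-55492696, minus strand: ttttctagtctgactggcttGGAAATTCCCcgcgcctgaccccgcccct
Nfkbie, chr17:45555574-45555623, plus strand: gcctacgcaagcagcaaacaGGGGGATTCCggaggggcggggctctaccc
Tnfaip3, chr10:19015411-19015555, minus strand: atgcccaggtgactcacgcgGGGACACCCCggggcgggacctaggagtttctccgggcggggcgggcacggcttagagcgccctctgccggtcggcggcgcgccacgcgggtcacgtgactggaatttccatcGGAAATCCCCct
Counted from the gene start, with the base before it as -1, the match of Nfkbia began at -29 and that of Nfkbie at -106. Bcl3 had its match 3 to 12 bases after the gene start, and Rela had none in its window. Nfkb2 has 3 windows in the table, each with a match. Numbered along the chromosome, windows 2 and 3 overlap and share a match, and window 1 is shown. A match describes the letters only, and binding was not measured.

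Differences are given on the log2 scale as ErbB4-/- minus control. They were tested with limma over all 22180 genes, and a gene passed at a Benjamini-Hochberg adjusted p under 0.05. Precision is limited by having 3 arrays in each group. The standard error had a median of 0.10 over all genes. The probe set of Erbb4 itself measured 4.75, 5.36 and 5.61 in ErbB4-/- liver and 5.42, 5.73 and 5.42 in control liver. These groups overlapped, so the transcript does not check the genotype labels, and the part of the gene it reads was not examined. Hepatocyte markers were high in both groups as the tissue label asks, with albumin (Alb) between 14.31 and 14.33 in ErbB4-/- and between 14.33 and 14.37 in control liver. On the first principal component of all genes ErbB4-/- replicate 3 lay farthest out, at 33.4 against 3.46 and 5.44 for the other ErbB4-/- arrays and between -21.5 and -6.96 for the control arrays.

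None of the 9 genes passed (limma, adjusted p between 0.760 and 0.928), where 1 of 22180 genes passed in all, or 0.00451%. Nfkbiz, Rel and Nfkbia were lower in every ErbB4-/- array than in every control array, and these 3 also had an unadjusted p under 0.05. Over all genes, 3.81% were lower and 4.52% higher without overlap, and 5.72% had an unadjusted p under 0.05, 2.94% with lower values. Rel and Nfkbiz differed by more than 0.5 downwards, as did 1.97% of all genes. Tnfaip3 and Bcl3 had lower means with overlapping groups, and Rela, Relb, Nfkb2 and Nfkbie differed by less than 0.1 in either direction. In all, 7 of the 9 differences were below 0, against 44.9% of all genes, and their median was -0.26, against 0.015 for all genes. The share below 0 was similar for hepatocyte markers, 11 of 14, whose median was -0.02. The median of the 9 genes was -0.17 without ErbB4-/- replicate 1 and -0.15 without ErbB4-/- replicate 2. As liver holds many cell types, fewer cells of a type and less RNA per cell cannot be told apart in any of these values.

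**Figure D1:**
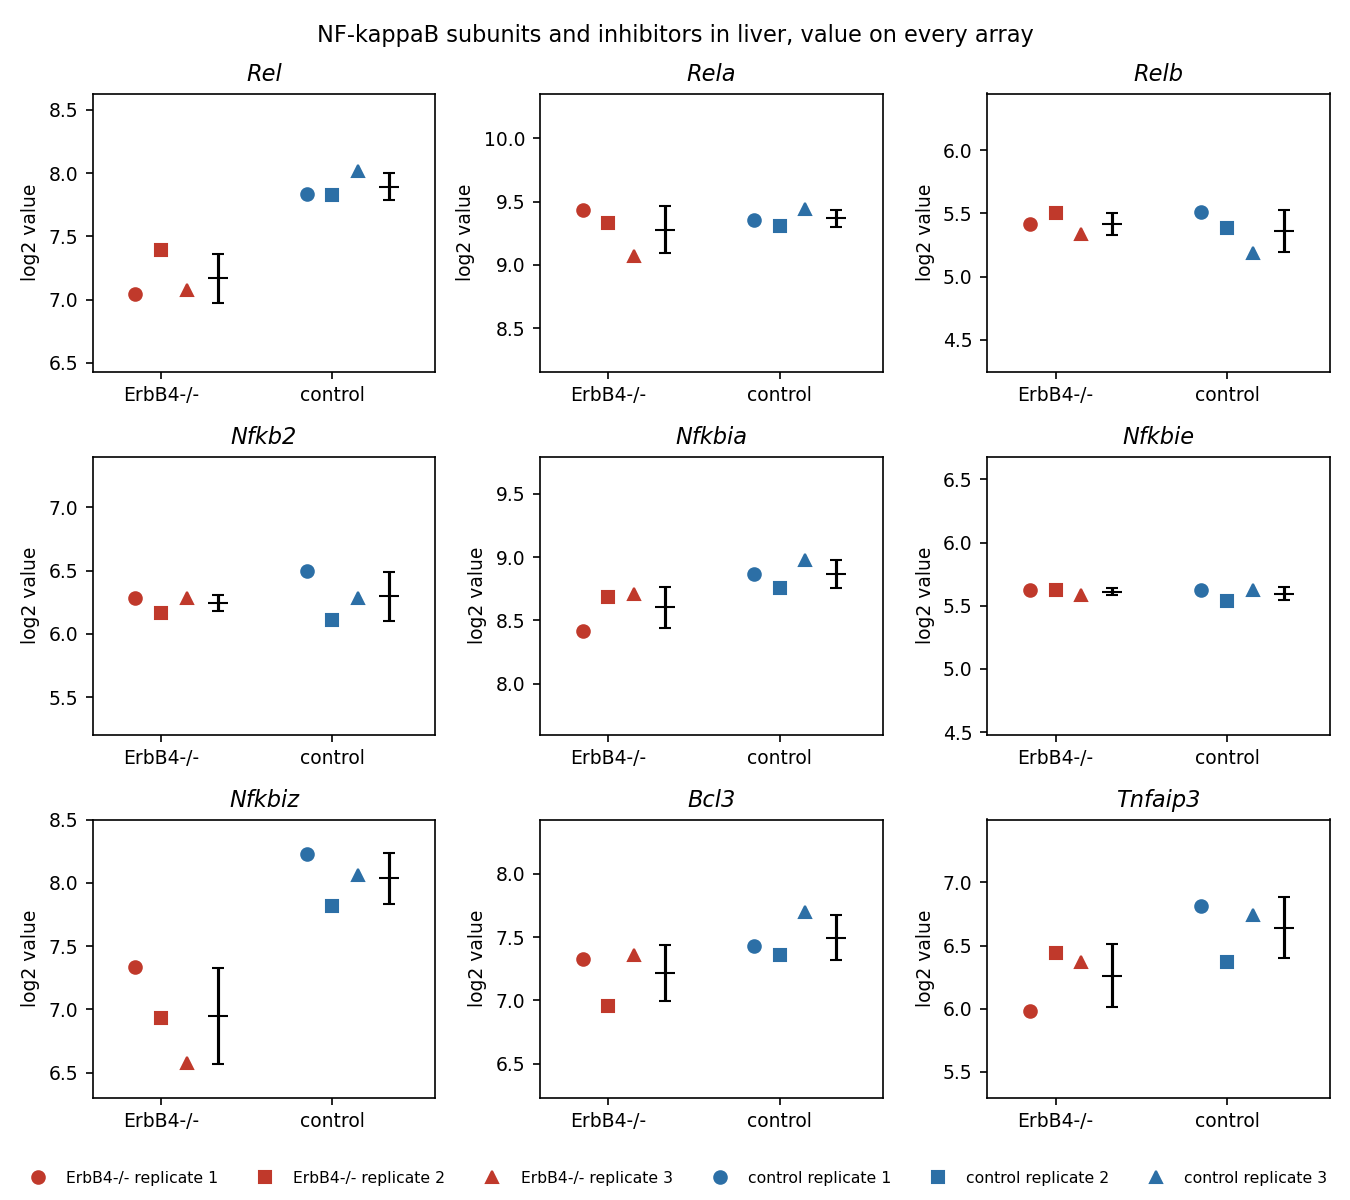
Log2 value of each measured gene on every array, with ErbB4-/- liver on the left in red and control liver on the right in blue, and the mean with its SD (n = 3) in black. Every panel spans the same height of log2 units, and only Rel, Nfkbia and Nfkbiz show no overlap between the groups.

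Among the subunits, Rel stood apart. It encodes c-Rel, a transactivating subunit best known from lymphocytes and myeloid cells. Its log2 value was 7.04, 7.39 and 7.07 in ErbB4-/- replicates 1 to 3, against 7.83, 7.83 and 8.02 in control replicates 1 to 3. The highest ErbB4-/- array lay below the lowest control array. The mean was 7.17 ± 0.19 in ErbB4-/- and 7.89 ± 0.11 in control liver (SD, n = 3 each), which differ by -0.72 (standard error 0.12), or 1.65-fold lower in ErbB4-/- liver. It did not pass over all genes (limma, adjusted p = 0.760).

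Rela encodes p65, the transactivating subunit found in most cell types and the partner of p50 in the classical pathway. It measured 9.43, 9.33 and 9.07 in ErbB4-/- arrays and 9.35, 9.31 and 9.44 in control arrays. ErbB4-/- replicates 1 and 2 lay within the control values and replicate 3 below all of them. The difference was -0.09, with a 95% interval of -0.35 to 0.17, and without ErbB4-/- replicate 3 it was 0.015.

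Relb and Nfkb2 encode the dimer of the alternative pathway, in which the precursor p100 is cut to p52. Relb measured 5.41, 5.50 and 5.33 in ErbB4-/- arrays and 5.51, 5.39 and 5.19 in control arrays. Nfkb2 measured 6.28, 6.17 and 6.28 in ErbB4-/- arrays and 6.49, 6.11 and 6.28 in control arrays. For both genes the ErbB4-/- values lay inside the range of the controls. The differences were 0.06 for Relb, with a 95% interval of -0.19 to 0.30, and -0.05 for Nfkb2, with an interval of -0.32 to 0.21. The difference measured for Rel lies outside both unadjusted intervals, but a contrast between genes was not tested.

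A difference between 2 genes on the same array is free of any shift that is constant over that array. Rel minus Rela was -2.39, -1.94 and -2.00 in ErbB4-/- arrays and -1.52, -1.48 and -1.42 in control arrays. Rel minus Relb averaged 1.75 ± 0.13 in ErbB4-/- and 2.53 ± 0.26 in control liver, and Rel minus Nfkb2 averaged 0.93 ± 0.26 in ErbB4-/- and 1.598 ± 0.22 in control liver (SD, n = 3 each). In each of these 3 pairs the groups did not overlap. The pairs were chosen after the values were seen and are given without a test. They restate the single-gene values and are no separate evidence.

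**Figure D2:**
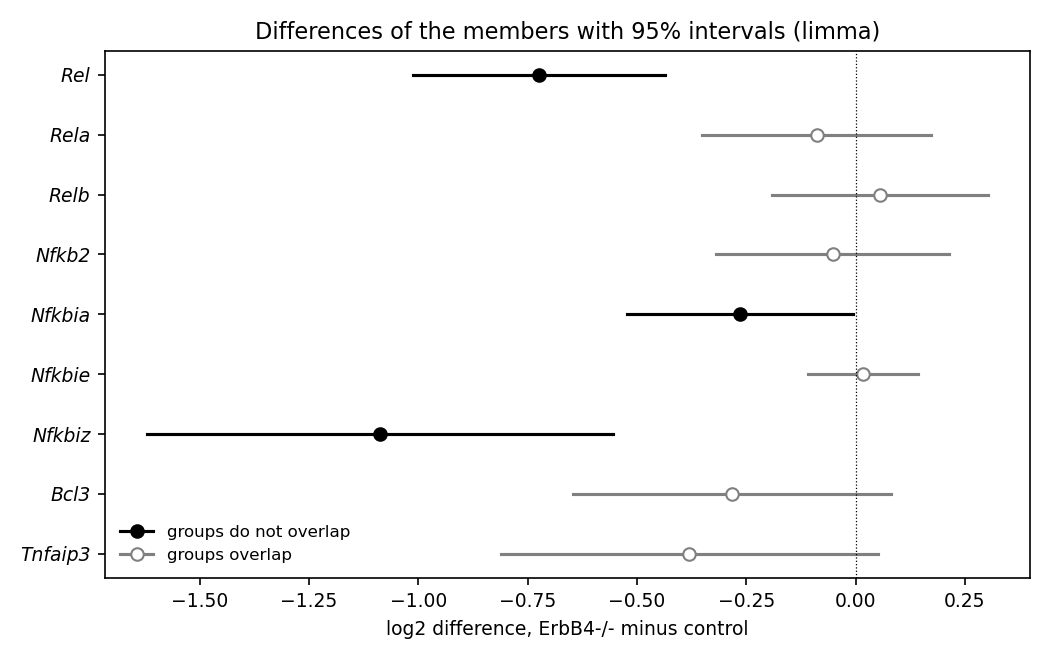
Log2 difference, ErbB4-/- minus control, for each measured gene (points) with its unadjusted 95% interval from limma (lines). Filled black points mark genes whose groups did not overlap, which are Rel at -0.72, Nfkbia at -0.26 and Nfkbiz at -1.09.

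The classical inhibitors of the IkappaB type hold the dimers in the cytoplasm. Nfkbia encodes IkappaB-alpha, the inhibitor that NF-kappaB itself induces within the feedback loop, and its promoter match is printed among the stretches given first. It measured 8.42, 8.68 and 8.71 in ErbB4-/- arrays, against 8.87, 8.75 and 8.98 in control arrays. The groups did not overlap, although ErbB4-/- replicate 3 lay close under control replicate 2. The mean was 8.60 ± 0.16 in ErbB4-/- and 8.87 ± 0.11 in control liver (SD, n = 3 each), which differ by -0.26 (standard error 0.10). This missed the threshold (limma, adjusted p = 0.760). It was -0.17 without ErbB4-/- replicate 1 and -0.56 with the labelled week as a covariate.

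Nfkbie encodes IkappaB-epsilon, a slower member of the same class. It measured 5.63, 5.63 and 5.58 in ErbB4-/- arrays and 5.63, 5.53 and 5.63 in control arrays. The difference was 0.02, with a 95% interval of -0.11 to 0.14. On 4 of the 6 arrays the deposited value was identical to the last digit, so its small spread cannot be read as that between mice. Identical values on at least a pair of arrays occurred for 4 of the 9 genes, Nfkb2, Nfkbie, Bcl3 and Tnfaip3, and for 57.5% of all genes.

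The nuclear members of the IkappaB family act on the promoters of target genes instead of holding dimers back. Nfkbiz encodes IkappaB-zeta, which is induced by interleukin 1 and Toll-like receptor signals and is needed for a second wave of inflammatory genes. It measured 7.34, 6.93 and 6.58 in ErbB4-/- arrays, against 8.23, 7.82 and 8.06 in control arrays. The groups did not overlap, and the ErbB4-/- arrays were spread more widely than the controls. The mean was 6.95 ± 0.38 in ErbB4-/- and 8.04 ± 0.20 in control liver (SD, n = 3 each), which differ by -1.09 (standard error 0.21), or 2.13-fold lower in ErbB4-/- liver. This was the largest difference among the 9 genes and did not pass (limma, adjusted p = 0.760). Without ErbB4-/- replicate 3 it was -0.90, and with the labelled week as a covariate -0.39.

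Bcl3, the other nuclear inhibitor, binds dimers of p50 or p52 and can activate or repress their targets. It measured 7.33, 6.96 and 7.36 in ErbB4-/- arrays and 7.43, 7.36 and 7.70 in control arrays. The highest ErbB4-/- array had the same deposited value as the lowest control array. The difference was -0.28 (standard error 0.15), with a 95% interval of -0.65 to 0.08, and it was -0.15 without ErbB4-/- replicate 2, -0.18 without control replicate 3 and -0.51 with the week. Nfkbiz minus Bcl3 on the same array was 0.01, -0.02 and -0.78 in ErbB4-/- arrays and 0.80, 0.46 and 0.36 in control arrays, and Nfkbiz minus Nfkbia was -1.08, -1.75 and -2.13 in ErbB4-/- arrays and -0.64, -0.93 and -0.92 in control arrays. Neither set of values overlapped between the groups, and both pairs were chosen after their values were seen.

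Tnfaip3 encodes A20, an enzyme that edits ubiquitin chains and shuts off signalling upstream of the IkappaB kinases. It measured 5.98, 6.44 and 6.37 in ErbB4-/- arrays and 6.81, 6.37 and 6.74 in control arrays. Control replicate 2 lay at or below the level of ErbB4-/- replicates 2 and 3, and ErbB4-/- replicate 1 below all others. The difference was -0.38 (standard error 0.17), with a 95% interval of -0.81 to 0.05, and it did not pass (limma, adjusted p = 0.760). It was -0.24 without ErbB4-/- replicate 1 and -0.62 with the week.

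Control replicate 2 had the lowest of the 3 control values for 8 of the 9 genes, Relb being the exception, whereas this was so for 28.2% of all genes. For Rel it lay only just below control replicate 1, both at 7.83. The same array was the lowest control for 12 of 12 neutrophil markers, 9 of 20 immediate early genes and 17 of 42 NF-kappaB target genes. It was so for 6 of 15 Kupffer cell and macrophage markers and 1 of 11 T and NK cell markers. Without it the median difference of the 9 genes was -0.32. The mean of the 9 genes was 6.98, 7.005 and 6.93 in ErbB4-/- arrays and 7.35, 7.16 and 7.34 in control arrays, so even this array lay above every ErbB4-/- array. That mean leans most on Rel and Nfkbiz, which differed by -0.72 and -1.09. For Nfkb2 and Nfkbie control replicate 2 was the lowest of all 6 arrays. The ErbB4-/- array that was lowest of the 6 differed between genes. It was replicate 1 for Rel, Nfkbia and Tnfaip3, replicate 2 for Bcl3 and replicate 3 for Rela and Nfkbiz. Over all genes, replicates 1 to 3 were the lowest for 16.8%, 14.5% and 20.2%, with ties given to the first array. The difference of a single gene could still rest in part on 1 array. Tnfaip3 differed by -0.38 in full and by -0.24 without ErbB4-/- replicate 1. Bcl3 differed by -0.28 in full, by -0.15 without ErbB4-/- replicate 2 and by -0.18 without control replicate 3.

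Other genes of the pathway were read from lists that were written with earlier results of these data known, and no member of any of them passed. Among IkappaB kinases and adaptors, 9 of 21 differences were below 0 and 12 above, with a median of 0.03. Irak3, which restrains signalling from Toll-like and interleukin 1 receptors in macrophages, had a mean of 5.61 ± 0.41 in ErbB4-/- and 6.26 ± 0.25 in control liver, and was lower without overlap. Irak2, a kinase gene of the same receptors named here after its values were seen, was higher without overlap, with 7.72 ± 0.01 in ErbB4-/- and 7.66 ± 0.05 in control liver. Ikbkb, the catalytic kinase that marks IkappaB for degradation, measured 8.11 ± 0.06 in ErbB4-/- and 8.02 ± 0.07 in control liver. The related kinase gene Ikbke differed by -0.18 and the adaptor gene Traf5 by 0.21, both with overlapping groups.

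The other inhibitors of the pathway had 8 of 15 differences below 0 and a median of -0.0077. Those with the smallest p were Pdlim2, a ubiquitin ligase gene for p65, with a difference of 0.18, Otulin, which removes linear ubiquitin chains, with 0.23, the deubiquitinase gene Otud7b with 0.08 and groups that did not overlap, and N4bp1, a restrainer of cytokine production, with -0.08. None of the 15 had an unadjusted p under 0.05 (limma).

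Receptors that signal to NF-kappaB had 14 of 18 differences at or below 0 and a median of -0.18. The 14 include Il18r1, which had the same value, 3.82, on all 6 arrays and so no difference. Cd14, the coreceptor for lipopolysaccharide, measured 5.61, 5.83 and 5.37 in ErbB4-/- arrays and 6.98, 6.24 and 6.53 in control arrays. Il1r1, the signalling receptor of interleukin 1, measured 9.04, 9.13 and 9.16 in ErbB4-/- arrays and 10.17, 9.48 and 10.64 in control arrays. Both were lower without overlap, as was Tlr2, a receptor for bacterial lipoproteins, with a difference of -0.25. Tlr7, a sensor of single-stranded RNA, differed by -0.27 with overlapping groups.

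NF-kappaB target genes, read as 42 widely used readouts, had 31 differences below 0 and 11 above. Their median was -0.13, and 8 had an unadjusted p under 0.05 (limma), all of them lower, against 2.94% of all genes. Vcam1, an adhesion molecule for leukocytes, measured 7.04, 7.14 and 6.90 in ErbB4-/- arrays and 8.16, 7.64 and 8.33 in control arrays. Il1b, the cytokine interleukin 1 beta, measured 7.84, 7.76 and 7.06 in ErbB4-/- arrays and 8.80, 8.61 and 9.38 in control arrays. Both had groups that did not overlap, and so did the stress gene Gadd45b, with a difference of -0.79, and Birc3, which encodes a ubiquitin ligase of the tumour necrosis factor receptor complex, with -0.29. Of the 42, 9 were lower and 1 was higher without overlap, against 3.81% and 4.52% of all genes.

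**Figure D3:**
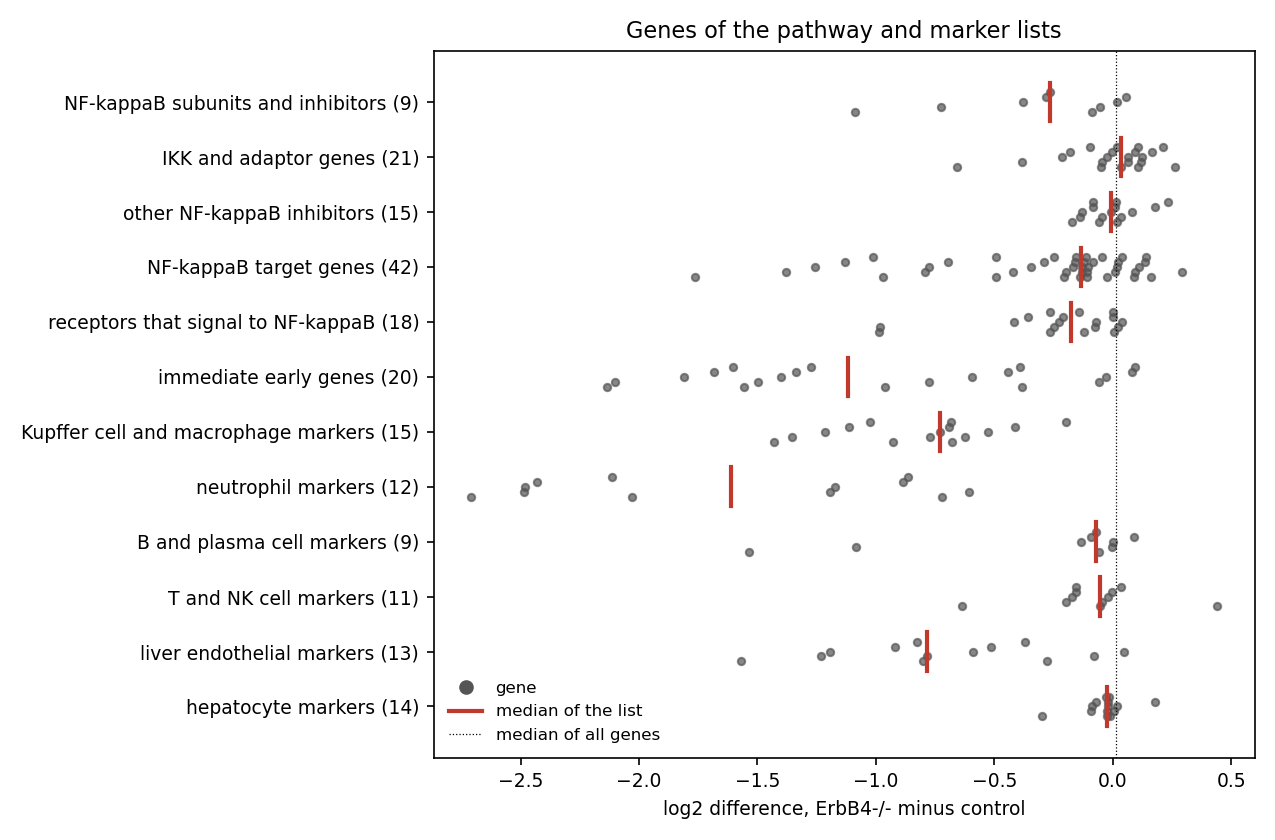
Log2 difference, ErbB4-/- minus control, for every measured gene (grey points) of each list, with the list's median as a red bar and the median of all genes as a dotted line. The number of measured genes stands in parentheses, and the medians of kinases and adaptors and of the other inhibitors lie at 0.03 and -0.0077 while those of immediate early genes and neutrophil markers lie at -1.12 and -1.61.

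Markers of several cell types were also lower, although none passed, and their part in the differences of the 9 genes was not tested. Over all genes 44.9% were lower, and 3.81% were lower without overlap. Kupffer cell and macrophage markers were lower for 15 of 15 genes, 12 of them without overlap. The mean of this list ranged from 7.08 to 7.87 over ErbB4-/- arrays and from 8.25 to 8.49 over control arrays. Of the defining genes, Clec4f measured 9.13 ± 0.34 in ErbB4-/- and 9.54 ± 0.05 in control liver, and Adgre1 measured 7.03 ± 0.33 in ErbB4-/- and 7.76 ± 0.20 in control liver (SD, n = 3 each). The scavenger receptor genes Cd163 and Marco differed by -1.35 and -1.43, the lysozyme gene Lyz2 by -0.68 and the complement gene C1qa by -0.63, all without overlap. Neutrophil markers were lower for 12 of 12 genes, 9 without overlap, with list means of 4.64 to 4.997 over ErbB4-/- and 5.29 to 7.19 over control arrays. S100a8 measured 5.44, 5.18 and 5.87 in ErbB4-/- arrays and 9.42, 6.17 and 9.02 in control arrays, and Ly6g, a low signal, measured 3.11 ± 0.20 in ErbB4-/- and 4.28 ± 0.55 in control liver. S100a9 and the granule gene Ngp differed by -2.49 and -2.43 and the receptor gene Csf3r by -0.61.

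Immediate early genes, a class whose transcription starts quickly after a stimulus, were lower for 18 of 20 genes with a median of -1.12. Nr4a1 differed by -1.81, Ier2 by -1.50, Egr2 by -0.96 and Fosl2 by -0.44, all without overlap. Their list mean was 7.98, 7.77 and 6.43 in ErbB4-/- arrays and 8.79, 8.20 and 8.16 in control arrays. Without ErbB4-/- replicate 3, which was also the lowest array for Nfkbiz, the median was -0.41, without control replicate 1 it was -0.58, and with the labelled week as a covariate it was 0.49. Endothelial markers were lower for 12 of 13 genes with a median of -0.78, and the list means of 6.93 to 7.99 over ErbB4-/- arrays overlapped those of 7.99 to 8.34 over control arrays. The endothelial median was -0.38 without ErbB4-/- replicate 3 and -0.08 with the week. The defining sinusoidal gene Stab2 measured 8.45 ± 0.45 in ErbB4-/- and 9.04 ± 0.10 in control liver. Lyve1 differed by -1.57 and Stab1 by -0.28 without overlap, and Fcgr2b by -1.23 and Gpr182 by -0.78 with overlap.

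Markers of B and plasma cells had a median of -0.07, with 7 of 9 differences below 0. Those of T and NK cells had a median of -0.05, with 9 of 11 below 0. Only 3 of 9 and 2 of 11 of them reached the median level of all genes. The T and NK cell median lay between -0.16, without control replicate 1, and -0.03, without control replicate 2, when 1 array was left out; it was also -0.13 without ErbB4-/- replicate 2 and -0.08 without control replicate 3. Over the 3 B and plasma cell genes that reached this level, Ighm, Jchain and Cd79a, the median was -1.09. That is the value of Ighm itself, whereas Cd79a differed by -0.13 with overlapping groups. Ighm differed by -1.09, Jchain by -1.53, Tnfrsf17 by -0.09 and Cd79b by -0.07, of which Jchain showed no overlap. Among T and NK cell genes Cd3g differed by -0.64, Cd8b1 by -0.20 and Ncr1 by 0.44, all without overlap. Cd3e measured 5.16 ± 0.06 in ErbB4-/- and 5.31 ± 0.14 in control liver. Hepatocyte markers had a median of -0.02 over 14 genes, with 11 differences below 0. Hnf4a differed by -0.30 without overlap, and Fgb by -0.09, Apoa2 by -0.09 and Serpina1a by 0.18 with overlap.

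**Figure D4:**
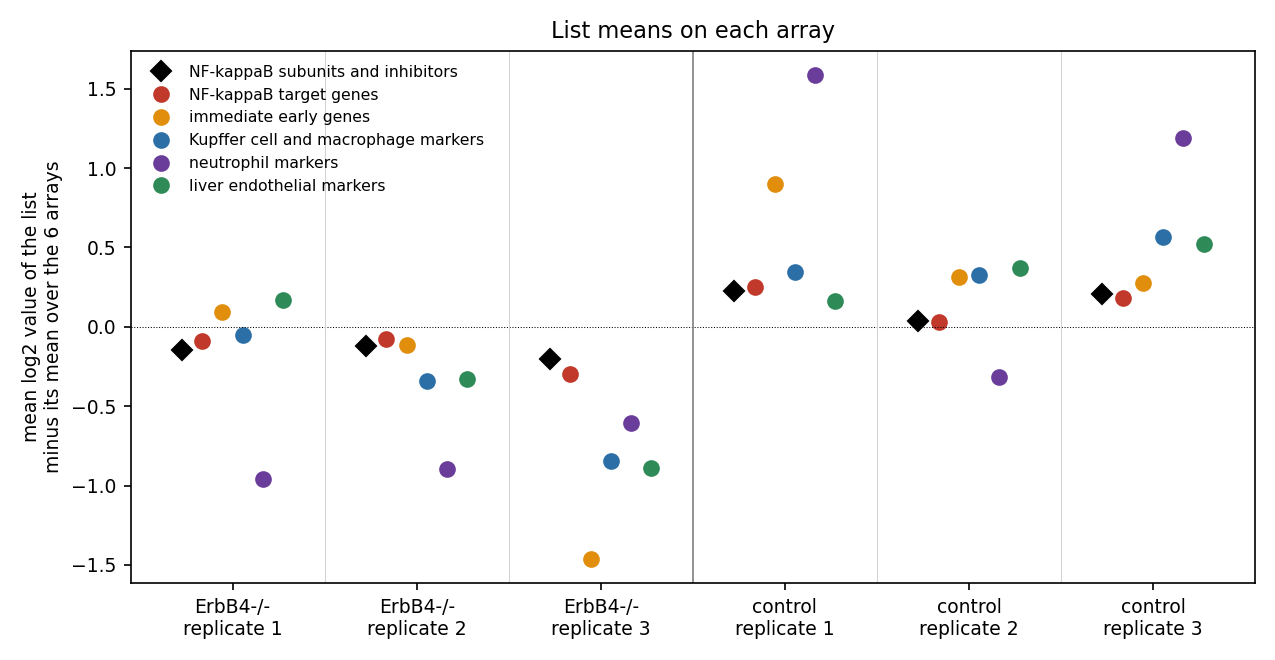
Mean log2 value of 6 lists on each array, as the distance from the list's own mean over all arrays, with ErbB4-/- arrays left of the grey line and control arrays right of it. The mean of the NF-kappaB subunits and inhibitors (black diamonds) lies below 0 on every ErbB4-/- array and above 0 on every control array. It leans most on Rel and Nfkbiz. The immediate early genes are lowest on ErbB4-/- replicate 3, and the neutrophil markers are below 0 on control replicate 2 as well.

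The genes whose pattern over the 6 arrays was most like the mean of the 9 subunits and inhibitors were sought among 11081 other genes at or above the median level. By Pearson correlation they were Itgal with 0.994, Vcam1 with 0.993, AB124611 with 0.992, Stk17b with 0.986 and Anxa3 with 0.983, with Spearman correlations between 0.77 and 1. Such values describe 6 arrays that share 1 normalization and fall into 2 groups, and with so many candidates high values occur without any link. All 5 were lower in every ErbB4-/- array than in every control array, with differences between -1.03 for Stk17b and -0.39 for Anxa3, and none passed. The mean they were chosen to follow separates the groups itself, so their lack of overlap follows largely from the choice and is no separate evidence. Vcam1 was the only 1 of the 5 that the list of NF-kappaB target genes also holds.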

How the data were processed

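Values are those the authors deposited, 1 log2 value for each probe set on each array, with array medians between 4.83 and 4.86; the log base was inferred from their range. Per the labels' protocols, RNA was extracted with Trizol and labelled with Affymetrix whole-transcript kits. Background correction, normalization, summarisation, software and genome build are not given in the sources used here. Of 41345 probe sets, 23521 have 1 symbol in the platform annotation, 1814 have several and 16010 are unnamed here. For each gene the probe set with the highest mean was kept, which left 22180 genes. limma 3.58.1 in R 4.3.3 (lmFit, eBayes, two-sided, genotype only) was run on all of them with Benjamini-Hochberg adjustment, and tested on simulated data. With 3 arrays a group, the smallest p of an exact permutation test is 0.1. Intervals are unadjusted. Named were the members, the 4 genes with the smallest p of each list, defining markers, Erbb4 and the 5 genes most like the members; 1 defining marker is not reported here. The members and lists were chosen with earlier results of these data known. Same-numbered arrays did not deviate together over all genes (correlations -0.10, 0.03 and -0.05). With 3 arrays a group this cannot exclude pairing by replicate number, which the main fit did not use. A planned comparison of protein sequences was not made. A pseudocount planned for linear values had no use. Figures were drawn with matplotlib 3.10.9.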

Additional observations from a re-analysis of the deposited data

How the results depend on the processing

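The 9 measured genes were refitted under 16 alternatives, and none passed in any of them (adjusted p between 0.476 and 0.994). Rel, Nfkbiz, Nfkbia, Bcl3 and Tnfaip3 stayed below 0 in all 16, but many of these settings could not have turned a sign. Changing only the genes tested, the probe set summary, the variance model or the replicate block left these differences unchanged. That was fixed beforehand, because each gene had 1 probe set and the groups were of equal size. For Rel, Nfkbiz and Nfkbia the groups did not overlap, so leaving out or weighting arrays could not reverse the sign either. Rel ranged from -0.88 to -0.66, Nfkbiz from -1.28 to -0.39, Nfkbia from -0.56 to -0.17, Bcl3 from -0.51 to -0.15 and Tnfaip3 from -0.62 to -0.24. Signs turned only for the 4 genes near 0: with the week as a covariate Rela was 0.12 and Nfkb2 0.11, and after removing control replicate 1 together with ErbB4-/- replicate 3 Rela was 0.0086 and Nfkb2 0.028. Leaving out 1 array gave Rela from -0.17 to 0.015 (highest without ErbB4-/- replicate 3), Nfkb2 from -0.14 to 0.047 (highest without control replicate 1), Nfkbie from -0.014 to 0.032 (lowest without control replicate 2) and Relb from -0.032 to 0.13 (lowest without control replicate 3). The cause was not tested. The median of the 9 genes was -0.39 with the week and between -0.32 and -0.15 when 1 array was left out, with -0.17 without ErbB4-/- replicate 1 and -0.15 without ErbB4-/- replicate 2. The median of the target genes was -0.051 with the week and -0.27 among genes at or above the median level, a setting that drops the dim ones, and it lay between -0.19 and -0.13 when 1 array was left out. Over all genes the count that passed limma was 0 with every row of the table tested, with the replicate block, with the week, without each array in turn (0 to 0) and without both arrays. The fit on every row had 2314 of 41345 probe sets at an unadjusted p under 0.05 (limma). The other settings, which tested genes, had 900 to 1552 genes at that level. The replicate block changed no call among the 9 genes. Low signals cannot be told from background here, since no background values were used.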
